A study of Homo sapiens with 18 samples.

Results

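The genes described here are HPRT1 and 9 other genes of purine synthesis and salvage (APRT, PPAT, PRPS1, PRPS2, GART, PAICS, ATIC, IMPDH1 and IMPDH2), 10 of the 57500 genes in the deposited count tables, taken by their GENCODE 29 symbols. The set was chosen from measured values of these data, which are not specified. It was taken here as chosen by the low level of HPRT1 in shNR4A2 cells, which is an assumption, and the values of HPRT1 between lines are given as a description, without a test. The RNA came from THP-1, a cell line of human monocytic leukaemia, in 3 stable derivatives that were each transduced with lentiviral particles and kept under puromycin. The shNT line expressed a non-target hairpin RNA, the shNR4A2 line a hairpin against the nuclear receptor NR4A2, and the shNR4A3 line a hairpin against NR4A3. Cells of every line were rested in buffered DMEM with serum and then left unstimulated (control) or treated with bacterial lipopolysaccharide (LPS) at 2.5 µg/ml for 2 h. Each of the 6 groups had 3 libraries of polyadenylated RNA, 18 in all, from what the study calls independent experiments. Each hairpin is represented by 1 line, so the effect of a hairpin and that of its line cannot be told apart. Total counts ran from 16171161 to 23929138 per library, and all 10 genes passed the filter on low counts in every comparison, with 232 (HPRT1) to 4440 (IMPDH2) counts per library.

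Cells make purine nucleotides along the de novo pathway, which builds inosine monophosphate on phosphoribosyl pyrophosphate (PRPP), or recover free bases by salvage. PRPS1 and PRPS2 make PRPP. PPAT catalyses the committed step, GART, PAICS and ATIC carry several of the later ones, and IMPDH1 and IMPDH2 lead from inosine monophosphate towards guanine nucleotides. HPRT1 salvages hypoxanthine and guanine, and APRT salvages adenine. HPRT1 is also widely used as a reference gene in quantitative PCR.

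HPRT1 lies on the plus strand of chromosome X (GRCh38, chrX:134460153-134520513). The 238 bases just before its deposited start, chrX:134459915-134460152, are shown because they hold the region upstream of the gene with the lowest relative level in shNR4A2 cells among the 10. They were read from RefSeq (GRCh38.p14) on the plus strand, have a GC content of 69.3% and hold 4 copies of GGGCGG (a GC box), in capitals.
HPRT1 upstream: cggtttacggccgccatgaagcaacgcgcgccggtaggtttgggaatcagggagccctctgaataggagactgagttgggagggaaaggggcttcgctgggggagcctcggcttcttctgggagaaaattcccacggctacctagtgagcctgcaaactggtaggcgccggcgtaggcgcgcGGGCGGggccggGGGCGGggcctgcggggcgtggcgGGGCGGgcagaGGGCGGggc

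PPAT (minus strand, chr4:56393362-56435615) and PAICS (plus strand, chr4:56435741-56464579) are divergent neighbours. The 125 bases between their deposited ends, chr4:56435616-56435740, are printed on the plus strand because both genes start at this interval and PPAT was called with LPS in all 3 lines while PAICS was called in none; the difference between them was not tested. They hold 3 copies of GGGCGG, in capitals, in a GC content of 76.0%.
between PPAT and PAICS: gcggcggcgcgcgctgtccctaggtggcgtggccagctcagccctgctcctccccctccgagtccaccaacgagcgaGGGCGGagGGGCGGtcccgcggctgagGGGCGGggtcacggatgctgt

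RefSeq windows of 300 bases around the gene start were available for 9 of the 10 genes, with 13 windows in all. On both strands, GGGCGG or its reverse complement occurred in 10 of the 13 windows, at least 1 for each gene, and in 45.0% of the 35116 windows of all genes. CACGTG (an E-box) occurred in 3 of the 13, for PPAT, PAICS and ATIC, and in 7.26% of all windows. A window of PPAT and one of PAICS overlap and can share a match. AAAGGTCA, the monomer site (NBRE) known for the NR4A receptors, occurred in 1.22% of all windows and in none of these 13, which says only that these letters are not in these windows.

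The hairpin targets were lower in their lines. In TPM (counts scaled for gene length and then to a common total in each library), NR4A2 was 62.7 ± 11.7 (SD, n = 3) in shNT and 21.2 ± 6.78 TPM in shNR4A2 cells in the presence of LPS, and 3.69 ± 0.74 and 1.95 ± 0.40 TPM without it. NR4A3 was 31.7 ± 0.71 TPM in shNT and 17.3 ± 0.81 TPM in shNR4A3 cells with LPS, and 0.59 ± 0.09 and 0.10 ± 0.06 TPM without it. By edgeR the log2 fold changes were -1.52 (adjusted p = 0.00265) and -0.91 (adjusted p = 0.0359) for NR4A2, and -0.82 (adjusted p = 0.000556) and -2.47 (adjusted p = 0.00767) for NR4A3. The receptor not targeted was not called in these fits. NR4A3 stood at 0.16 with LPS and 0.68 without it in shNR4A2 cells. NR4A2 stood at -0.36 with LPS and -0.29 without it in shNR4A3 cells. With the replicate number as a block, NR4A2 was called lower in shNR4A3 cells with LPS. TNF, an inflammatory cytokine, rose with LPS in all 3 lines, by log2 fold changes of 5.23, 5.14 and 6.14 in shNT, shNR4A2 and shNR4A3 cells.

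The cells expressed the monocytic markers fixed for THP-1, with LYZ and SPI1 the most abundant, while CD3E, EPCAM and HBB stayed at means of 0.22 TPM or less and COL1A1 at means of 0.75 TPM or less. Of the 8 monocytic markers, 3 rose in shNR4A2 cells without LPS and 2 with it, and 5 and 4 rose in shNR4A3 cells, against 6.45%, 6.96%, 7.23% and 6.45% of all genes called in these comparisons. With the replicate block 6 and 5 rose in shNR4A2 cells without and with LPS (23.6% and 28.1% of all genes called), and in shNR4A3 cells with LPS 5 rose and 1, FCGR1A, fell (-0.19, adjusted p = 0.0404 by edgeR; 21.8%). LYZ (lysozyme) was higher by 1.68 and 1.76 in shNR4A2 cells and by 2.25 and 2.29 in shNR4A3 cells on the log2 scale. The summed TPM of the 8 markers ran from 992 to 1117 in shNT control cells, 1529 to 1794 in shNR4A2 control cells and 1774 to 2253 in shNR4A3 control cells. With LPS it ran from 1070 to 1271, 1622 to 1903 and 1865 to 2290 in the same order. Of the 6 markers of other cells, PECAM1, which monocytic cells also express, made up most of the sum, and it rose in shNR4A2 cells by 0.63 without LPS and 0.70 with it. That sum ran from 159 to 210 TPM in shNT control cells, 256 to 295 TPM in shNR4A2 control cells and 208 to 212 TPM in shNR4A3 control cells. With LPS it was 117 to 159, 184 to 233 and 162 to 185 TPM. The part of these marker differences in the results below was not tested.

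HPRT1 was low in every shNR4A2 library and overlapped its shNT values in shNR4A3 cells. In CPM (counts scaled to the size of each library, here with TMM factors over the 18 libraries), the shNT control libraries had 45.0, 48.6 and 52.1 and the shNR4A2 control libraries 14.1, 14.0 and 11.8. With LPS the shNT libraries had 54.9, 60.8 and 61.5 and the shNR4A2 libraries 14.98, 14.4 and 12.5. The highest shNR4A2 library was thus far below the lowest shNT library in both states. The shNR4A3 libraries had 54.9, 47.3 and 56.5 CPM without LPS and 61.9, 60.4 and 67.6 CPM with it, which overlapped the shNT libraries.

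**Figure D1:**
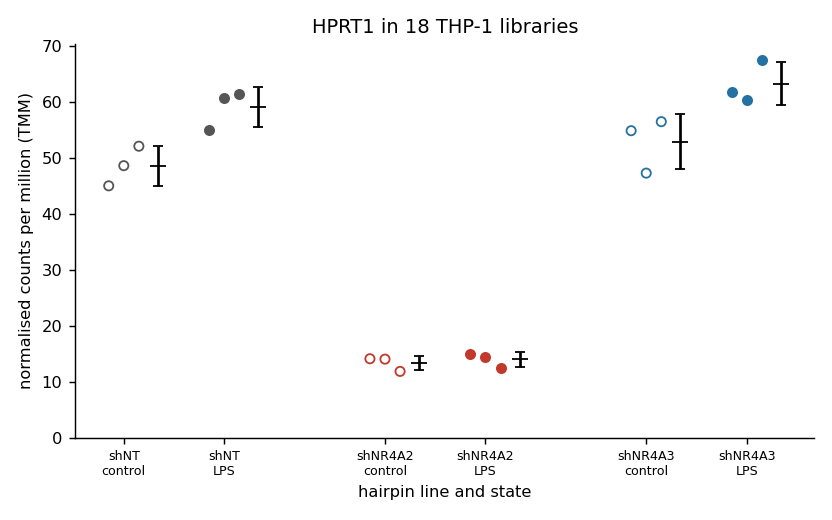
HPRT1 in each of the 18 libraries as normalised CPM (y axis, from 0) by line and state (x axis). Open points are control and filled points LPS libraries, and the black mark is the mean ± SD of 3. The 6 shNR4A2 libraries lie between 11.8 and 14.98, below the other 12.

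Relative to the shNT mean CPM, HPRT1 stood at 27.4% ± 2.65 (SD, n = 3) in shNR4A2 cells without LPS and at 23.7% ± 2.18 with LPS. The log2 fold changes from shNT to shNR4A2 cells were -1.86 ± 0.12 (SE) and -2.08 ± 0.11. Against shNR4A3 cells they were -1.98 ± 0.13 and -2.17 ± 0.11. Between shNR4A3 and shNT cells they were 0.12 ± 0.10 and 0.10 ± 0.09. In bulk RNA, fewer cells with HPRT1 RNA and less of it per cell cannot be told apart. Reads of the 3 annotated HPRT1 pseudogenes added up to 4 counts over all libraries, 0.0278% of the HPRT1 count.

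Per length, in TPM, the order of the genes in shNT control cells was IMPDH2 (264 ± 5.30), APRT (176 ± 9.56), HPRT1 (118 ± 12.6), IMPDH1 (110 ± 6.88), PRPS1 (99.5 ± 1.00), PAICS (88.9 ± 7.86), PRPS2 (86.9 ± 3.53), ATIC (69.6 ± 4.05), GART (41.6 ± 5.92) and PPAT (22.2 ± 6.01). In this order the libraries of HPRT1 and IMPDH1 overlapped, as did those of PAICS and PRPS2, and no other neighbours did. In shNR4A2 control cells HPRT1, at 32.4 ± 2.36 TPM, came after GART (38.1 ± 4.85 TPM) and before PPAT (17.8 ± 4.09 TPM). Its libraries did not overlap those of either. HPRT1 was number 3 of the 10 in shNT and number 9 in shNR4A2 control cells. With LPS its shNR4A2 libraries (28.2 ± 3.25 TPM) overlapped those of GART (35.1 ± 3.78 TPM). APRT, the other base-salvage enzyme, was at 209 ± 36.6 TPM in shNR4A2 control cells.

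Without LPS, 1 of the 10 genes was called between shNR4A2 and shNT cells (edgeR quasi-likelihood test, adjusted p under 0.05), and it was HPRT1, for which the call follows from the choice of the set as taken here and is not a result. Of all genes tested 6.45% were called. The other 9 genes had log2 fold changes between -0.31 (PPAT) and 0.25 (APRT), with adjusted p-values of 0.110 or more and 95% intervals that all lay between -0.72 and 0.53. In the presence of LPS HPRT1 alone was called, again not a result, and 6.96% of all genes were, and the others lay between -0.30 (PPAT) and 0.28 (APRT). The median over the 10 genes, HPRT1 included, was -0.09 without LPS and -0.16 with it, against -0.001 over all genes tested in either state. Since HPRT1 was taken as the reason for the choice, nothing is read from this median.

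These counts were higher with the replicate number as a block. Same-numbered libraries deviated together in both comparisons. Without LPS 6 of the 10 were then called, against 23.6% of all genes. They were HPRT1, which the choice fixed, APRT (0.23, adjusted p = 0.0430) and IMPDH1 (0.23, adjusted p = 0.0147), both higher, and PPAT (-0.31, adjusted p = 0.0160), PAICS (-0.27, adjusted p = 0.00489) and IMPDH2 (-0.24, adjusted p = 0.00777), which were lower. With LPS 7 were called, against 28.1% of all genes, namely the same 6 and PRPS1 (-0.21, adjusted p = 0.0266). The fold changes barely differed from those without the block.

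The shift of PAICS is visible in the libraries. In shNT control cells it had 157, 173 and 177 CPM, and in shNR4A2 control cells 136, 136 and 146 CPM, so the groups did not overlap. IMPDH2, the more abundant of the IMP dehydrogenases, had 191, 194 and 174 CPM in shNT and 163, 159 and 147 CPM in shNR4A2 control cells, again without overlap.

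In shNR4A3 against shNT cells without LPS, 0 of the 10 genes were called by edgeR, against 7.23% of all genes, and DESeq2 called 1, IMPDH1. In the presence of LPS 1 was called, IMPDH1, against 6.45% of all genes. IMPDH1 had 95.7, 103 and 98.7 CPM in shNT and 119, 124 and 122 CPM in shNR4A3 cells with LPS, and the groups did not overlap. Its log2 fold change was 0.29 ± 0.07 (SE), with an adjusted p of 0.0436 by edgeR. Leaving out any 1 of the 6 libraries left the log2 fold change between 0.27 and 0.32 and gave adjusted p-values from 0.0599 to 0.152, above the limit. The call was also lost without the filter on low counts (0.136) and in 1 fit of all libraries (0.0617). With the replicate block IMPDH1 (adjusted p = 0.00259) and PAICS (-0.20, adjusted p = 0.0276) were called, 2 of 10 against 21.8% of all genes. Without LPS IMPDH1 stood at 0.30 ± 0.09 with an adjusted p of 0.0710, and it was called (0.38) without shNT control replicate 2.

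**Figure D2:**
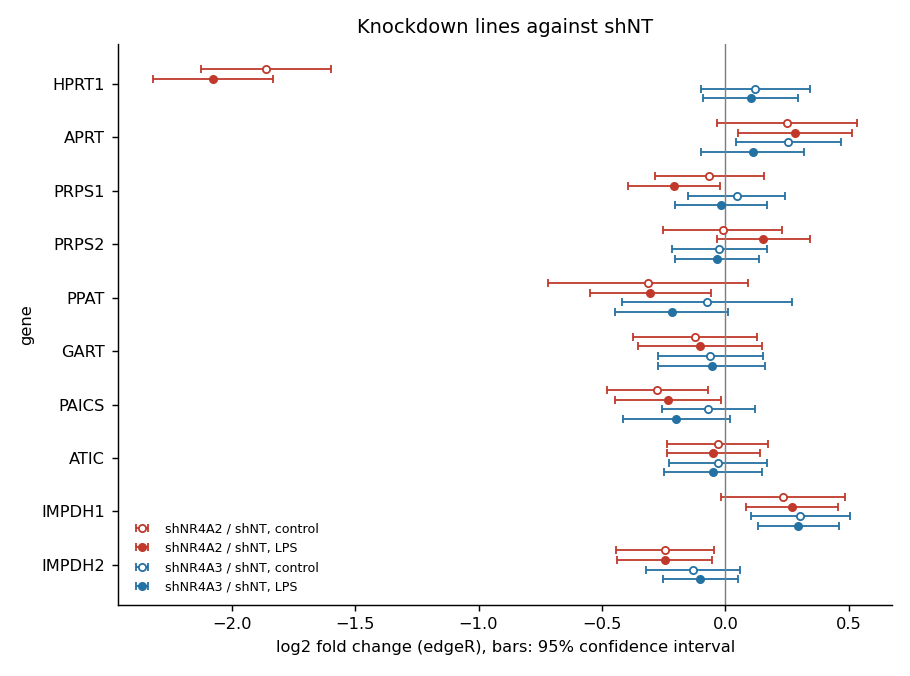
Log2 fold change (x axis) of the 10 genes (y axis) in shNR4A2 (red) and shNR4A3 (blue) against shNT cells, without LPS (open) and with LPS (filled). Bars are 95% confidence intervals of the edgeR fit. HPRT1 in shNR4A2 cells lies at -1.86 and -2.08, and every other point lies between -0.31 and 0.30.

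APRT, the other salvage enzyme, was not called between lines without the block. It had 76.5, 84.7 and 80.7 CPM in shNT control libraries, 85.8, 117 and 84.0 CPM in shNR4A2 and 95.3, 108 and 86.2 CPM in shNR4A3 control libraries. With LPS it had 80.1, 89.7 and 101 CPM in shNT, 112, 103 and 113 CPM in shNR4A2 and 99.17, 95.04 and 97.81 CPM in shNR4A3 cells. The shNR4A2 libraries overlapped the shNT libraries without LPS and lay just above them with LPS, while the shNR4A3 libraries lay just above them without LPS and overlapped them with LPS. The PRPP synthetases and the later de novo enzymes GART and ATIC had closely spaced means without LPS. PRPS1 was at 57.6 ± 2.47, 54.8 ± 4.52 and 59.5 ± 3.83 CPM (SD, n = 3) in shNT, shNR4A2 and shNR4A3 control cells, and PRPS2 at 60.8 ± 0.40, 60.1 ± 7.71 and 59.8 ± 4.04 CPM. With LPS PRPS1 had 57.8, 57.9 and 54.1 CPM in shNR4A2 and 66.0, 65.9 and 64.8 CPM in shNT cells, and PRPS2 had 78.0, 73.9 and 72.7 and 65.0, 70.1 and 67.4 CPM. Neither pair of groups overlapped, with PRPS1 below and PRPS2 above the shNT libraries. Without LPS, GART was at 81.6 ± 8.65, 74.6 ± 7.48 and 78.3 ± 4.11 CPM, and ATIC at 69.3 ± 1.20, 67.5 ± 3.06 and 67.9 ± 6.03 CPM. ATIC had log2 fold changes from -0.05 to 0.003 in the 6 comparisons between lines, and GART from -0.12 to -0.04, and neither was called in any of them, with or without the replicate block.

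Between shNR4A2 and shNR4A3 cells, 1 gene of the 10 was called in each state, HPRT1, which the choice of the set also fixed and from which nothing is read. Of all genes 3.08% were called without LPS and 2.33% with it. With the replicate block 4 were called in the presence of LPS, against 23.6% of all genes. Beside HPRT1 these were APRT (0.17, adjusted p = 0.0342) and PRPS2 (0.19, adjusted p = 0.0297), higher in shNR4A2 cells, and PRPS1 (-0.19, adjusted p = 0.0377), lower. PRPS1 and PRPS2 encode closely related PRPP synthetases. The shNT libraries are shared by both knockdown comparisons, so their values are given side by side only.

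LPS lowered PPAT in all 3 lines. In shNT cells PPAT had 29.2, 24.3 and 38.0 CPM without LPS and 17.9, 19.3 and 20.7 CPM with it. In shNR4A2 cells it had 25.7, 18.8 and 28.7 and then 15.3, 15.6 and 15.8 CPM. In shNR4A3 cells it had 30.2, 23.7 and 33.1 and then 16.9, 16.1 and 16.7 CPM. Every LPS library lay below every control library of its line, and the control libraries spread more widely than the LPS libraries. The log2 fold changes were -0.66 ± 0.15 (SE), -0.65 ± 0.17 and -0.81 ± 0.14 in shNT, shNR4A2 and shNR4A3 cells, with edgeR adjusted p-values of 0.00421, 0.0152 and 0.00104. For shNR4A2 cells the call was lost without control replicate 3 (-0.52, adjusted p = 0.0760) or LPS replicate 1 (-0.63, adjusted p = 0.0540).

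PAICS, which starts next to PPAT on the opposite strand, was not called with LPS in any line, with log2 fold changes of 0.14 ± 0.09, 0.18 ± 0.11 and 0.01 ± 0.09 in shNT, shNR4A2 and shNR4A3 cells. The log2 ratio of PPAT to PAICS in TPM was -1.96, -2.37 and -1.76 in shNT control libraries and -2.73, -2.91 and -2.77 in shNT LPS libraries. In shNR4A2 cells it was -1.93, -2.39 and -1.88 and then -2.87, -2.87 and -2.90. In shNR4A3 cells it was -1.85, -2.33 and -1.90 and then -2.68, -2.95 and -2.84. The ratio was lower in each LPS library than in any control library, a pattern singled out after the values were seen and not tested.

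**Figure D3:**
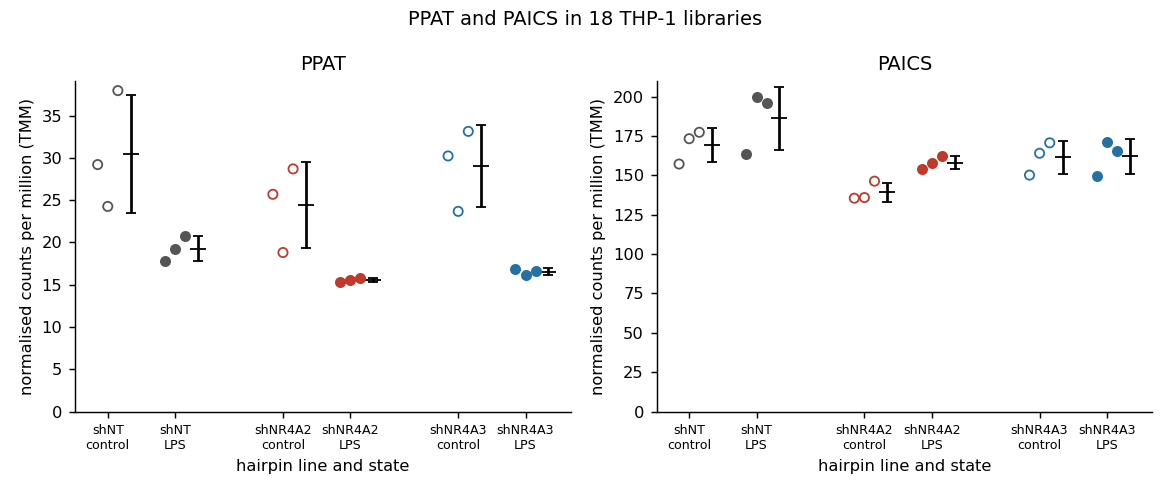
PPAT (left) and PAICS (right) in each library as normalised CPM (y axes, from 0, with different scales) by line and state (x axis), with the mean ± SD of 3 in black. PPAT lies at 15.3 to 20.7 with LPS and at 18.8 to 38.0 without, while PAICS overlaps between the states in shNT and shNR4A3 cells.

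HPRT1 rose with LPS in shNT cells by 0.28 ± 0.09 (SE, adjusted p = 0.0399), and its control and LPS libraries, listed above, did not overlap. This call was lost without shNT control replicate 1 (0.23, adjusted p = 0.170) or 2 (0.28, adjusted p = 0.0830) or LPS replicate 2 (0.28, adjusted p = 0.0975) or 3 (0.26, adjusted p = 0.110), without the filter (0.0658) and in 1 fit of all libraries (0.0540). In shNR4A3 cells it stood at 0.26 ± 0.10 (adjusted p = 0.0770), and at an adjusted p of 0.0182 with the replicate block. In shNR4A2 cells it stood at 0.07 ± 0.15, with a 95% interval from -0.26 to 0.39. The difference of this response between shNR4A2 and shNT cells was -0.21 ± 0.16 and was not called.

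Over the 10 genes, 2 were called with LPS in shNT cells (HPRT1 and PPAT), against 24.9% of all genes, and 1 in shNR4A2 cells (PPAT), against 19.3%. In shNR4A3 cells 1 was called (PPAT), against 28.1%. With the replicate block PRPS2 (0.32, adjusted p = 0.0335) joined PPAT in shNR4A2 cells, 2 of 10 against 30.1% of all genes. In shNR4A3 cells HPRT1 and IMPDH2 (0.25, adjusted p = 0.0144) joined it, 3 of 10 against 39.4%. The interaction of line and LPS was called for 0 of the 10 genes and for 0% of all genes by edgeR, both for shNR4A2 (365 of 16674 genes at an unadjusted p under 0.05, 2 called by DESeq2) and for shNR4A3 (824 of 16428 genes, 10 called by DESeq2). For PPAT it was 0.01 ± 0.23 and -0.15 ± 0.21. The median log2 change with LPS over all genes tested was -0.23, -0.28 and -0.24 in TPM in the 3 lines, against -0.01, -0.02 and -0.01 after TMM scaling, where a median near 0 follows from the scaling itself. The states were compared after TMM scaling throughout. ATIC is an example, at 69.6 and 59.7 TPM but 69.3 and 69.1 CPM in shNT cells without and with LPS.

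**Figure D4:**
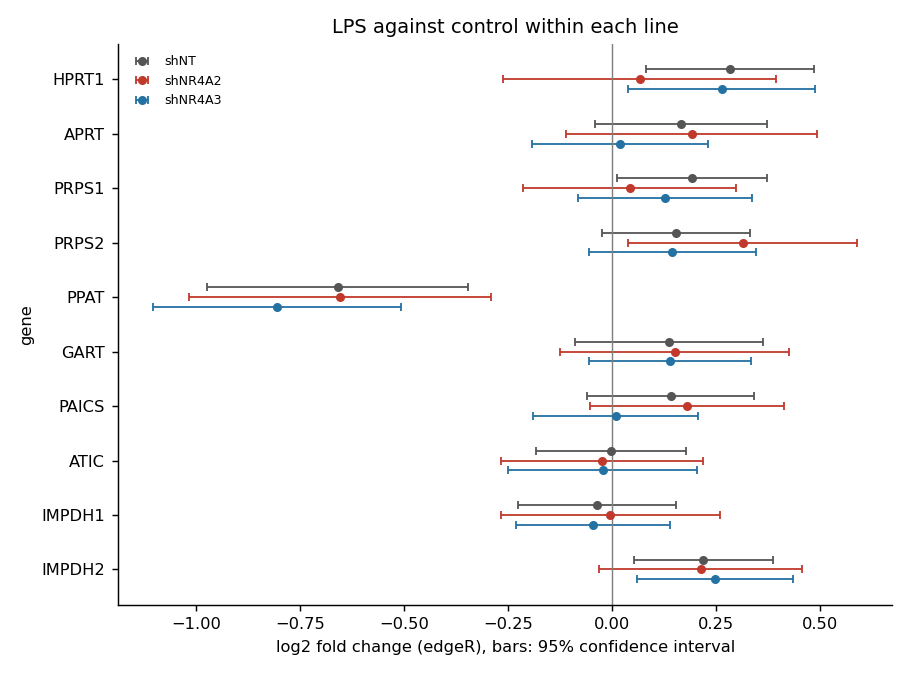
Log2 fold change with LPS (x axis) of the 10 genes (y axis) in shNT (grey), shNR4A2 (red) and shNR4A3 (blue) cells, with 95% confidence intervals of the edgeR fit. PPAT lies between -0.81 and -0.65 in the 3 lines, and the other 9 genes lie between -0.05 and 0.31.

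Of 45 further genes of purine metabolism in 5 lists, 39 were tested between shNR4A2 and shNT cells without LPS and 2 were called, against 6.45% of all genes. ADA2, a secreted adenosine deaminase, rose and SHMT1, a folate enzyme, fell. With LPS ADA2, ADA and GUK1 rose and PFAS fell, 4 of 38 against 6.96%. In shNR4A3 cells 3 rose (ADA2, SAMHD1 and PNP) and 3 fell (SHMT1, AMPD3 and GDA) without LPS, 6 of 39 against 7.23%, and with LPS ADA2 alone rose, 1 of 37 against 6.45%. With the replicate block 13 of 39 and 14 of 38 were called in shNR4A2 cells without and with LPS (23.6% and 28.1% of all genes), and 10 of 37 in shNR4A3 cells with LPS (21.8%). ADA2 was higher by 0.96 ± 0.14 and 1.03 ± 0.15 in shNR4A2 and by 1.31 ± 0.17 and 1.41 ± 0.15 in shNR4A3 cells. PFAS, an enzyme of the de novo pathway, was at 38.7 ± 2.43 CPM in shNT and 28.96 ± 1.60 CPM in shNR4A2 cells with LPS (-0.41 ± 0.10, adjusted p = 0.0362 by edgeR). It was also lower than in shNR4A3 cells with LPS (-0.69 ± 0.10, adjusted p = 0.0107). Between the knockdown lines without LPS, the nucleoside transporter SLC29A2 was higher in shNR4A2 cells (1.15 ± 0.29, adjusted p = 0.0485 by edgeR). It was the only 1 of 37 called, against 3.08% of all genes, and was not called against shNT in either line without the block. PFAS was the only 1 of 38 called between these lines with LPS, against 2.33%. With the replicate block 8 of 37 genes were called between these lines without LPS and 14 of 38 with it (11.6% and 23.6% of all genes). GDA had 63 counts in the 3 shNT control libraries together and 13 in the shNR4A3 ones.

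With LPS 8 of 39 of these genes were called in shNT, 7 of 38 in shNR4A2 and 10 of 37 in shNR4A3 cells, shares near those of all genes (24.9%, 19.3% and 28.1%). MTHFD2, a mitochondrial folate enzyme, rose in all 3 lines, and SHMT2 in shNT and shNR4A3 cells. MTHFD2 rose by 0.70 ± 0.08, 0.59 ± 0.17 and 0.66 ± 0.14. PNP, which releases hypoxanthine and guanine from nucleosides, AMPD2 and the nucleoside transporter SLC29A3 fell in all 3 lines. The log2 fold changes were -0.42, -0.47 and -0.63 for PNP and -0.89, -1.31 and -1.83 for SLC29A3. ADA rose in shNT and shNR4A2 cells and NT5E in shNR4A2 cells, while DCK fell in shNT and shNR4A3 cells. ADSS and PRPSAP1 fell and AMPD3 rose in shNR4A3 cells.

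Of 14 other reference genes of quantitative PCR, 0 were called between any lines by edgeR, with medians from -0.09 to 0.03, and with the replicate block 4 were called in each shNR4A2 against shNT comparison, where 23.6% and 28.1% of all genes were. With LPS 6, 6 and 7 of the 14 were called in shNT, shNR4A2 and shNR4A3 cells (against 24.9%, 19.3% and 28.1% of all genes), among them B2M, RPLP0, TFRC and PGK1, higher in all 3 lines. Of the called genes, 1 was lower in shNR4A2 cells and 2 were lower in shNR4A3 cells. The replicate block gave 10 and 12 of the 14 with LPS in shNR4A2 and shNR4A3 cells, against 30.1% and 39.4% of all genes. Of these, 1 and 2 were lower.

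Within 1000000 bases of HPRT1 the tables list 57 other genes, of which 15 passed the filter over the 18 libraries. In shNR4A2 against shNT cells 1 of 15 tested was called without LPS and 2 of 13 with it, against 6.45% and 6.96% of all genes. In shNR4A3 cells 2 of 14 were called in each state, against 7.23% and 6.45%. With the replicate block 5 were called in shNR4A2 cells in each state (23.6% and 28.1% of all genes). In shNR4A3 cells the block gave 2 without LPS and 3 with it (14.8% and 21.8%). SMIM10L2A, whose start lies 962 kb from that of HPRT1, fell in all 4 comparisons, with log2 fold changes of -1.03 and -1.32 in shNR4A2 and of -1.28 and -1.40 in shNR4A3 cells. It has a close copy, SMIM10L2B, with which it may share reads. Without the block, GPC3 was called higher in shNR4A2 cells with LPS (0.47). ZNF449 was called lower in shNR4A3 cells without LPS (-0.65) and SMIM10 in shNR4A3 cells with LPS (-0.77). Over the 4 comparisons ZNF449 lay between -0.73 and -0.48 and SMIM10 between -0.77 and -0.44. With the block both were also called in shNR4A2 cells in each state. GPC3 stood at 0.34 in shNR4A2 cells without LPS, called with the block, and at -0.23 and -0.16 in shNR4A3 cells, not called. PHF6, whose start is 86.9 kb away, stood at 0.14 ± 0.13 and 0.11 ± 0.14 in shNR4A2 cells and was not called.

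**Figure D5:**
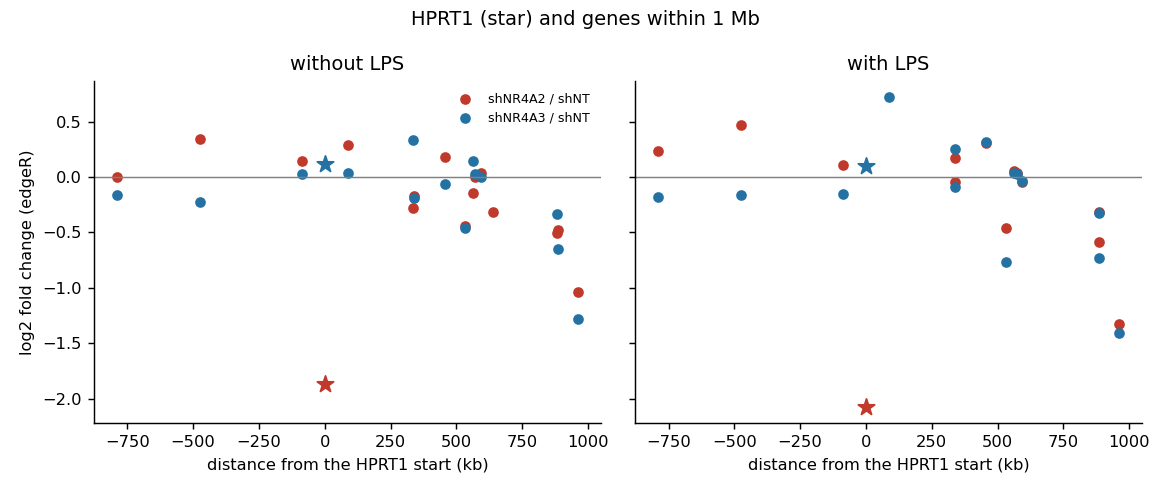
Log2 fold change (y axis) of HPRT1 (star) and of the neighbouring genes tested (points) against the distance of their start from the HPRT1 start in kilobases (x axis), in shNR4A2 (red) and shNR4A3 (blue) against shNT cells. The neighbours lie between -1.40 and 0.73, and HPRT1 in shNR4A2 cells lies at -1.86 and -2.08.

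Across the 18 libraries, the 5 genes with log2 CPM most like HPRT1 were SEZ6L2 (Pearson r = 0.986), LAMTOR5 (0.982), ARMCX1 (0.977), HNRNPUL1 (0.976) and ERAP1 (0.975). The 5 with the most opposite pattern were AKR1C2 (-0.985), AKR1C1 (-0.972), POU4F2 (-0.972), SCG2 (-0.961) and AIFM2 (-0.955). These correlations, among 16935 genes, are a description, since all of them rest on the same 6 shNR4A2 libraries standing apart. Over the 6 group means, LAMTOR5 ranked first. SEZ6L2 had log2 CPM of 7.29, 7.43 and 7.29 in shNT control cells and 5.53, 5.86 and 5.51 in shNR4A2 control cells, without overlap. AKR1C1 and AKR1C2 are near-identical paralogs, and reads may be split between them.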

How the data were processed

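RNA was measured in 18 THP-1 libraries (6 groups of 3). Per the labels, the authors prepared polyadenylated libraries and sequenced them on an Illumina HiSeq from both ends, and the submitters' processing notes name Trimmomatic 0.36, STAR 2.5.2b, featureCounts of Subread 1.5.2 and GRCh38. Their settings, the annotation release and the handling of strand and of reads with several positions are not given in the sources used here. The deposited values are raw counts for each Ensembl gene, which the authors did not normalize. Symbols came from GENCODE 29 (56898 of 57500 genes).

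Each comparison was fitted on its own libraries (pairs of groups, or 4 groups for an interaction) with edgeR 4.0.16 in R 4.3.3 (filterByExpr, TMM, quasi-likelihood F test), with Benjamini-Hochberg adjustment over all genes tested and a limit of 0.05. TPM was the count over the deposited length, scaled per library. Log2 CPM used a prior count of 2. The p-values set a difference between groups against the spread of the 3 libraries within each group. For each gene that spread is moderated over all genes tested. An exact permutation test of 3 against 3 was not used, since it cannot reach the limit. Alternatives were DESeq2 1.42.0, RLE normalization, no filter, a replicate block, all 18 libraries in 1 fit and each library left out in turn. The replicate numbers of the labels were taken to pair libraries where residuals of same-numbered libraries correlated above 0.1 in all 3 replicates, which held in all comparisons of 2 groups but shNR4A3 against shNT without LPS (lowest r = 0.0767) and LPS in shNT cells (lowest r = 0.00751). The genes and lists were chosen with earlier results of these data known, and named genes are the 10 genes, the called genes of the lists, called neighbours of HPRT1 and the 5 genes most and least like it. Some genes counted in the lists are not reported here by name.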

Additional observations from a re-analysis of the deposited data

How the results depend on the processing

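The alternatives gave 1058 fold changes of the 10 genes, with HPRT1 and PPAT alone for the interactions. Of these, 1012 kept their side of the limit without a reversal, 16 lost a call, 30 gained one and 0 reversed. A reversal was read only where the 95% interval of the main fit excludes 0. Among 783 other values 63 changed sign. The values of HPRT1 between lines, which follow from the choice as taken here, are counted among the 1058. The replicate block gave 6 and 7 called members for shNR4A2 against shNT without and with LPS, 2 and 2 for shNR4A3 (14.8% of all genes without LPS), 4 for shNR4A2 against shNR4A3 with LPS, and 2 and 3 for LPS in shNR4A2 and shNR4A3 cells. Same-numbered libraries were not shown to be paired for shNR4A3 against shNT without LPS. The block changed no other count of members by more than 1.5 times. DESeq2 gave 1 for shNR4A3 against shNT without LPS (7.64% of all genes), RLE normalization gave 2 for LPS in shNR4A3 cells (28.2%), and no filter gave 0 for shNR4A3 against shNT with LPS (4.57%) and 1 for LPS in shNT cells (10.0%). All 18 libraries in 1 fit gave 0 and 1 for these (7.14% and 20.8%) and 2 and 2 for LPS in shNR4A2 and shNR4A3 cells (27.2% and 27.9%). With 1 library left out, the counts ran from 0 to 1 for shNR4A3 against shNT without LPS and from 0 to 0 with LPS, from 1 to 2 for LPS in shNT, from 0 to 2 in shNR4A2 and from 1 to 2 in shNR4A3 cells. The member gained for LPS was APRT without shNR4A2 control replicate 2 and IMPDH2 without shNR4A3 control replicate 1. The cause of these changes was not tested.

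Counts over all genes moved by more than 1.5 times with the block (3733, 4385, 2267, 3401, 1800 and 3666 in the 6 comparisons between lines in the order of the text, 4751 for LPS in shNR4A2 cells, 8 and 22 for the interactions), without the filter (1611, 1843, 1839, 838 and 1102 in the comparisons between lines other than shNR4A3 against shNT without LPS, 29 and 138 for the interactions), with DESeq2 (700 for shNR4A2 against shNR4A3 with LPS, 2 and 10 for the interactions) and in 1 fit (1691 for shNR4A2 against shNT with LPS, 1032 for shNR4A2 against shNR4A3 with LPS, 4601 for LPS in shNR4A2 cells). Of 40 levels relative to shNT, 8 differed by more than 1 SD between TPM and CPM. With 1 library left out the counts over all genes ran from 517, 342, 649, 383, 249 and 94 to 1128, 1477, 975, 1693, 470 and 217 in the comparisons between lines, and up to 8 and 44 for the interactions. Each group has 3 libraries of 1 line, which sets the width of the intervals given.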

Other observations

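MTAP, which salvages adenine from methylthioadenosine, had 2 counts in the 18 libraries together, 1 in shNR4A2 and 1 in shNR4A3 cells with LPS. AMPD1, PRPS1L1, SLC28A3 and ALDH1L1 had at most 12 counts in any group of 3 libraries, and XDH, the enzyme that forms uric acid, at most 13. Pseudogenes of PRPS1 held 517 counts, 2.47% of the PRPS1 count, and those of IMPDH1 held 260, or 0.649%, and reads may be split between these copies.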
